A study of Homo sapiens with 6 samples.

Results

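MYC, the long non-coding RNA gene PVT1 and 7 cyclin genes (CCND1, CCND2, CCND3, CCNE1, CCNE2, CCNA2 and CCNB1) were described for 3 targets, the protein NONO and the histone marks H3T11ph (phosphorylated threonine 11) and H3K27ac (acetylated lysine 27), in the breast cancer line MDA-MB-231. MYC and CCND1 were taken because the kinase activity of PKM2 on histone H3 threonine 11 has been described at them in other cells, and the other genes served as comparators. Each gene was read over its RefSeq span extended by 5 kb at both ends, which is called its window here, and every called region that touched a window was counted. The 9 genes include 8 of 19974 protein-coding genes (chromosomes 1 to 22 and X were used), and their windows held 56 of 89474 NONO regions and 27 of 42674 H3T11ph regions in control cells.

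CUT&Tag uses an antibody to bring a transposase to a chromatin protein or histone mark, which cuts the neighbouring DNA for sequencing. MDA-MB-231 is an established triple-negative line. NONO was mapped in control cells (labelled NC, genotype WT) and in NONO knockdown cells (NONO-KD), whereas H3T11ph and H3K27ac were each mapped in NC cells and after PKM2 knockdown (PKM2-KD). Both knockdowns were made by RNA interference, but which reagent was used for these libraries is not given in the sources used here. Each of the 6 groups held 1 library, so there were no replicates, no p-value was computed, and every difference describes a pair of libraries. The peak lists hold no expression values, so the knockdowns were not checked.

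MYC encodes a transcription factor that drives growth and cell division, and PVT1 lies downstream of it on chromosome 8 and contains enhancers that contact MYC. The D-type cyclins (CCND1, CCND2, CCND3) activate the kinases CDK4 and CDK6 early in G1, the E-type cyclins (CCNE1, CCNE2) activate CDK2 at entry into S phase, cyclin A2 acts in S and G2, and cyclin B1 activates CDK1 at mitosis. PKM2 is a pyruvate kinase isoform that also acts in the nucleus as a protein kinase. NONO is an RNA- and DNA-binding protein of paraspeckles, and H3K27ac marks active promoters and enhancers.

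For every region 3 quantities are given. The fold is the deposited enrichment of the summit over the local background that the peak caller used for that list. Whether this background came from the same library or from a separate control was not established. The height is the number of fragments piled up at the summit, which was recovered from the deposited fold and −log10 p, with an exact Poisson 95% interval. The covered length is the number of bases of the window inside regions. All intervals cover counting error only. The depth recovered was 2.84 to 3.42 fragments per kb in the NONO and H3T11ph libraries and 7.46 and 7.48 in the H3K27ac libraries. The lists were not all called alike, since 94.6% of regions in NONO NC and 79.3% in H3K27ac NC had exactly the narrowest width of their list, against 1.19% to 2.05% in the other 4. Calling and knockdown therefore cannot be told apart in the NONO and H3K27ac pairs, while the H3T11ph lists were of 1 form. H3K27ac covered a median of 18.3% (NC) and 24.8% (PKM2-KD) of the windows of 6 mesenchymal genes that mark this line, against 3.58% and 2.18% for 6 luminal genes. Single genes overlapped, since the luminal gene GATA3 reached 15.9% and 16.7% and the mesenchymal gene CAV1 only 6.78% and 8.38%. The mesenchymal gene MSN had no H3K27ac region within 1 kb of an end in either library.

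H3T11ph lay at the 5′ end of MYC in both libraries. In NC, 1 region (chr8:127735255-127735463, hg38) ran from 179 bp before the start of the gene to 29 bp inside it, with a fold of 7.42 and a height of 64 fragments (49.3 to 81.7). The other NC region (chr8:127735984-127736159) began 550 bp inside the gene, with a fold of 9.53 and 56 fragments (42.3 to 72.7). In PKM2-KD, regions began 175 bp inside the gene (fold 13.9, 74 fragments) and 710 bp inside it (fold 11.3, 57 fragments), and the latter shared 16 bp with the NC region. Height ratios are scaled to the commonest background of each list, which is the product of depth and fragment length. For H3T11ph they are also given scaled to fragments per kb alone, since the narrowest widths, taken as the fragment lengths, were 111 and 91 bp. At the shared MYC site the height in PKM2-KD was 1.22 times that in NC (0.827 to 1.79), or 0.998 times by fragments per kb (0.678 to 1.47), so no loss of H3T11ph was detectable there. The region over the start itself was listed in NC only, and the nearest PKM2-KD region lay beyond it inside the gene.

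The other 3 H3T11ph regions at MYC in PKM2-KD were not overlapped in NC, as was usual, since NC regions overlapped 6.98% of the whole PKM2-KD list. The strongest (chr8:127743139-127743251) lay 188 bp past the 3′ end of the gene, with a fold of 56.3 and 80 fragments. Another began 7125 bp into the gene (fold 33.6, 43 fragments), and the last touched the outer edge of the window 5073 bp before the start (fold 24.4, 31 fragments). The H3T11ph count at MYC was thus 2 in NC cells and 5 after PKM2 knockdown. Of 10160 genes whose window length was within a factor of 2 of that of MYC, 13.8% held at least 2 in NC and 0.295% held at least 5 in PKM2-KD.

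For NONO, no region was listed at MYC in NC and 2 were listed in NONO-KD. The first (chr8:127735178-127735369) covered the stretch from 256 to 65 bp before the start, with a fold of 10.1 and 35 fragments, and shared 115 bp with the H3T11ph NC region over the start. The second lay 3616 bp past the 3′ end, with a fold of 45.4 and 57 fragments. A NONO region in the knockdown list alone was held by 6.76% of all protein-coding genes, and MYC was the only such gene of the 9.

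H3K27ac formed 8 regions at MYC in NC and 9 in PKM2-KD, covering 19.1% and 30.7% of the window. Of all protein-coding genes, 1.82% were covered at least as much in NC and 1.42% in PKM2-KD. The strongest region in both lists lay just past the 3′ end, over the PKM2-KD H3T11ph region there, with a fold of 24.5 and 92 fragments (74.2 to 112.8) in NC and a fold of 63.4 and 123 fragments (102.2 to 146.8) in PKM2-KD. Its scaled height in PKM2-KD was 1.32 times that in NC (1.0003 to 1.75), a smaller difference than that of the folds. At the 5′ end the heights were 62 and 75 fragments, a ratio of 1.196 (0.843 to 1.702). The folds there were 1.96 and 4.40, over local backgrounds of 16.0 in NC (in units scaled by 0.521) and 16.3 in PKM2-KD, against commonest values of 0.435 and 0.845. Of the other sites inside MYC called in both libraries, 2 were lower in PKM2-KD, 1 was higher and 1 had no height recovered in NC. The site beginning 640 bp into the gene had 85 and 47 fragments (ratio 0.546, 0.374 to 0.789), and the site beginning 1934 bp into it had 54 and 29 (ratio 0.531, 0.326 to 0.848). The site beginning 6113 bp into it had 16 and 38 fragments (ratio 2.35, 1.28 to 4.51).

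At CCND1, which encodes cyclin D1, neither H3T11ph list held a region within 1 kb of the 5′ end. In NC the regions lay 3047 bp before the start (chr11:69638109-69638252, fold 37.2, 50 fragments) and 12017 bp into the gene (chr11:69653173-69653302, fold 41.8, 58 fragments). In PKM2-KD they lay 3200 bp into the gene (chr11:69644356-69644579, fold 57.1, 83 fragments) and 22 bp past the 3′ end (chr11:69654496-69654673, fold 16.7, 45 fragments). Both libraries thus held 2 regions at CCND1, and none of them overlapped between the libraries, as was the case for most regions of the list (a PKM2-KD region overlapped 5.75% of all NC regions). The closest pair was 1194 bp apart. Of 11138 genes whose window length was within a factor of 2 of that of CCND1, 16.3% held at least 2 H3T11ph regions in NC and 14.2% in PKM2-KD.

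NONO held 4 regions in CCND1 in NC and none in NONO-KD. All 4 lay inside the gene, beginning 3710, 5754, 6674 and 8983 bp from its start, with folds of 14.8, 5.37, 98.5 and 13.4. The strongest (chr11:69647830-69648098) had 191 fragments and lay wholly inside H3K27ac regions of both libraries. None of the 4 overlapped H3T11ph. Both PKM2-KD H3T11ph regions of CCND1 overlapped H3K27ac of the same cells, and neither NC region did.

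H3K27ac at CCND1 comprised 10 regions covering 1940 bp in NC and 16 regions covering 7155 bp in PKM2-KD, which is 8.32% and 30.7% of the window. The heights did not show such a gap at the sites called in both libraries. At the 5′ end the heights were 62 fragments in NC (47.5 to 79.5) and 51 in PKM2-KD (37.97 to 67.1), a ratio of 0.813 (0.550 to 1.197). The folds there were 1.85 and 10.6, with local backgrounds of 17.0 (scaled by 0.521) and 3.91. At the site of highest fold in both lists, which began 2205 bp upstream in NC and 2179 bp upstream in PKM2-KD, the heights were 39 and 52 fragments, a ratio of 1.32 (0.853 to 2.05). Across the 6 sites of CCND1 called in both libraries the ratio ran from 0.777 to 2.26, and every interval included 1.

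**Figure D1:**
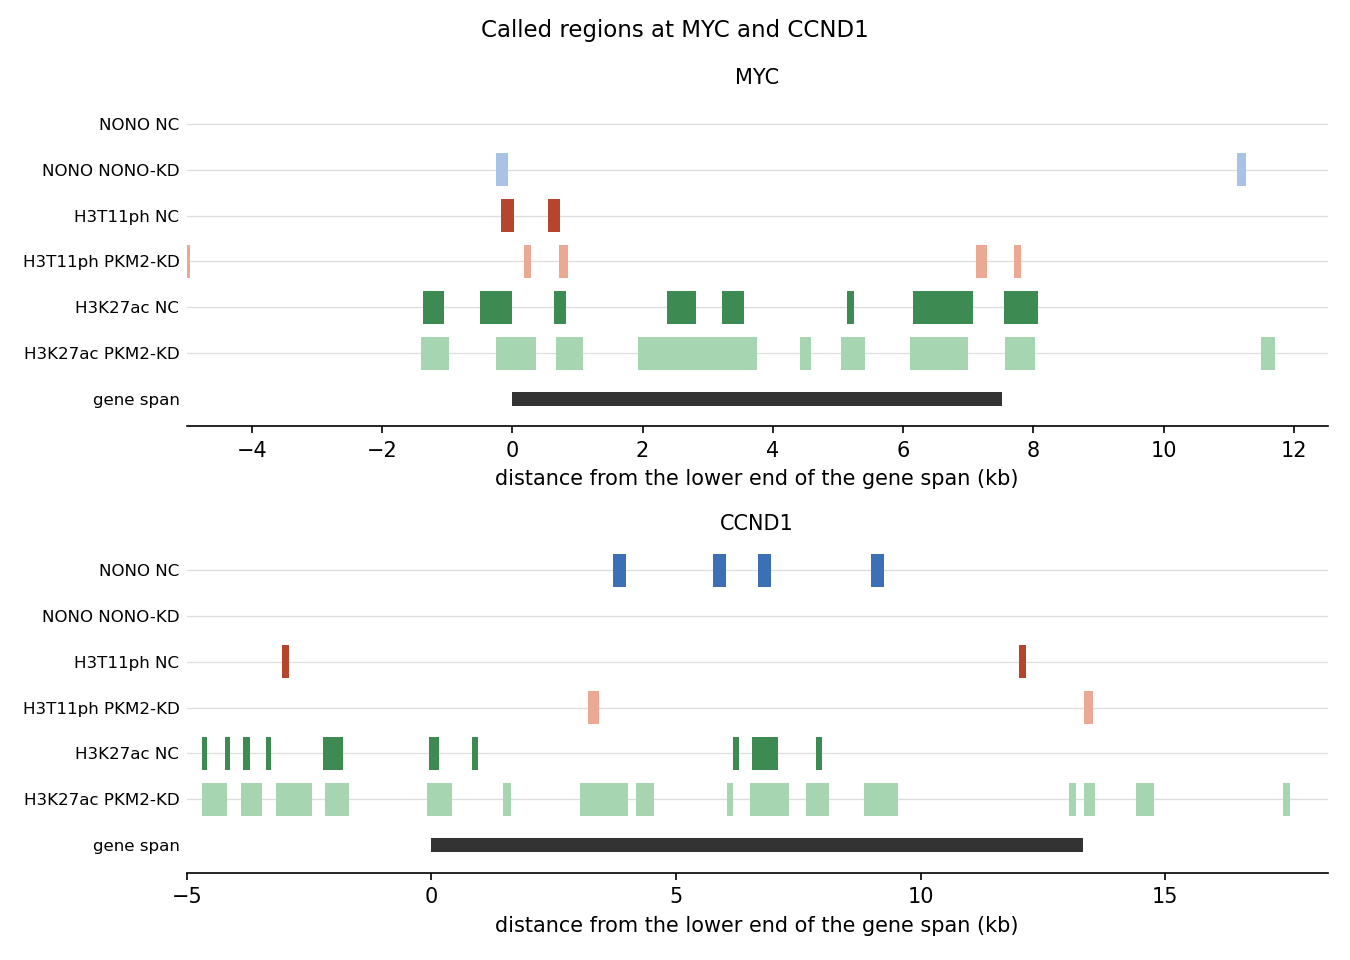
Called regions at MYC (top) and CCND1 (bottom) in the 6 libraries, 1 row each. The horizontal axis is the distance from the lower end of the gene span in kb, both genes are transcribed from left to right, and the dark bar is the gene span. H3T11ph regions sit at the left end of MYC in both libraries, and the 2 regions of CCND1 in each library lie at different places.

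PVT1 held more regions than any other of the 9 genes in every list except NONO-KD, where CCND3 held as many. Its span of 306.7 kb begins 51.6 kb beyond the end of MYC. NONO formed 28 regions there in NC and 6 in NONO-KD. H3T11ph formed 17 in NC cells and 20 after PKM2 knockdown, and H3K27ac 177 and 157. Of 1879 protein-coding genes whose window length was within a factor of 2 of that of PVT1, the median was 3 H3T11ph regions in each library. At least as many H3T11ph regions as in PVT1 were held by 0.532% of them in NC and by 0.0% in PKM2-KD. For H3K27ac these shares were 0.798% and 0.0%, and for NONO 1.54% in NC and 23.3% in NONO-KD. The strongest NONO region (chr8:127864031-127864299) had a fold of 138 and 288 fragments in NC, and the strongest in NONO-KD (chr8:127865135-127865267) a fold of 38.4 and 58 fragments. A weaker NONO NC region (fold 5.13, 88 fragments) ended 145 bp before the 5′ end.

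The H3T11ph regions of PVT1 lay in its first 225 kb in both libraries, and the last 82222 bp of the span held none. A total of 6 of the 17 NC regions were overlapped by a PKM2-KD region. The highest was at chr8:127931672-127931972, beginning 137148 bp into the gene, with 270 fragments in NC (238.8 to 304.2) and 155 in PKM2-KD (131.6 to 181.4), a ratio of 0.687 (0.560 to 0.840). The site at 59405 bp had 182 and 164 fragments (ratio 1.08, 0.867 to 1.34), or 0.884 by fragments per kb (0.711 to 1.097). The site at 121918 bp, which had the highest fold in both libraries (54.3 and 54.1), had 118 and 107 (1.08, 0.827 to 1.42), or 0.889 by fragments per kb (0.678 to 1.17). The sites that were higher in PKM2-KD numbered 2. At 95484 bp the heights were 29 and 169 fragments (ratio 6.97, 4.68 to 10.7), and at 174954 bp they were 49 and 95 (2.32, 1.63 to 3.34). A further NC region of 52 fragments (chr8:127890334-127890459) lay 115 bp from the PKM2-KD region at 95484 bp. It did not enter that ratio, which therefore depends on where the regions were cut. Thus 1 of the 6 sites was lower, 2 were higher, and the other 3 had an interval that included 1, and these calls were the same by fragments per kb. Over all 2430 H3T11ph sites called in both libraries the median ratio was 1.13 (quartiles 0.717 and 1.91), but 0.930 by fragments per kb (quartiles 0.588 and 1.57), so the direction of this median depends on the scaling.

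The NONO and H3T11ph regions of PVT1 met at 5 places in NC, and the 5 H3T11ph regions lay wholly inside H3K27ac regions of the PKM2-KD list. In the H3K27ac NC list the H3T11ph region at chr8:127949723-127949899 shared 112 of its 177 bp, and the others lay wholly inside. These sites stood on high local background. The NONO backgrounds were 4.40 to 69.7 and the commonest value of the list was 0.899, so that the 241 fragments at 59598 bp gave a fold of 3.42 only. Over all 17 H3T11ph NC regions of PVT1 the median background was 0.843, against 0.372 over the list. The part of local background in these overlaps was not tested.

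H3K27ac in PVT1 formed broad domains. Regions of 1 kb or more numbered 10 in NC and 26 in PKM2-KD and covered 25638 and 48696 bp. The highest folds were 35.0 in NC (chr8:127906511-127910189, 178 fragments) and 80.7 in PKM2-KD (chr8:127859186-127860702, 163 fragments). The widest was 4758 bp in NC and 4771 bp in PKM2-KD. Covered length was densest in the first 25 kb, at 40.6% and 55.5%, and between 100 and 125 kb, at 44.9% and 53.4%. Across 71 of 72 sites called in both libraries, those with a height, the median height ratio was 1.06, with 17 intervals above 1 and 8 below it. The highest site, beginning 56667 bp into the gene, reached 371 fragments in NC and 614 in PKM2-KD, a ratio of 1.64 (1.44 to 1.87), and the next in NC, at 13277 bp, had 370 and 313 fragments, a ratio of 0.836 (0.717 to 0.974).

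**Figure D2:**
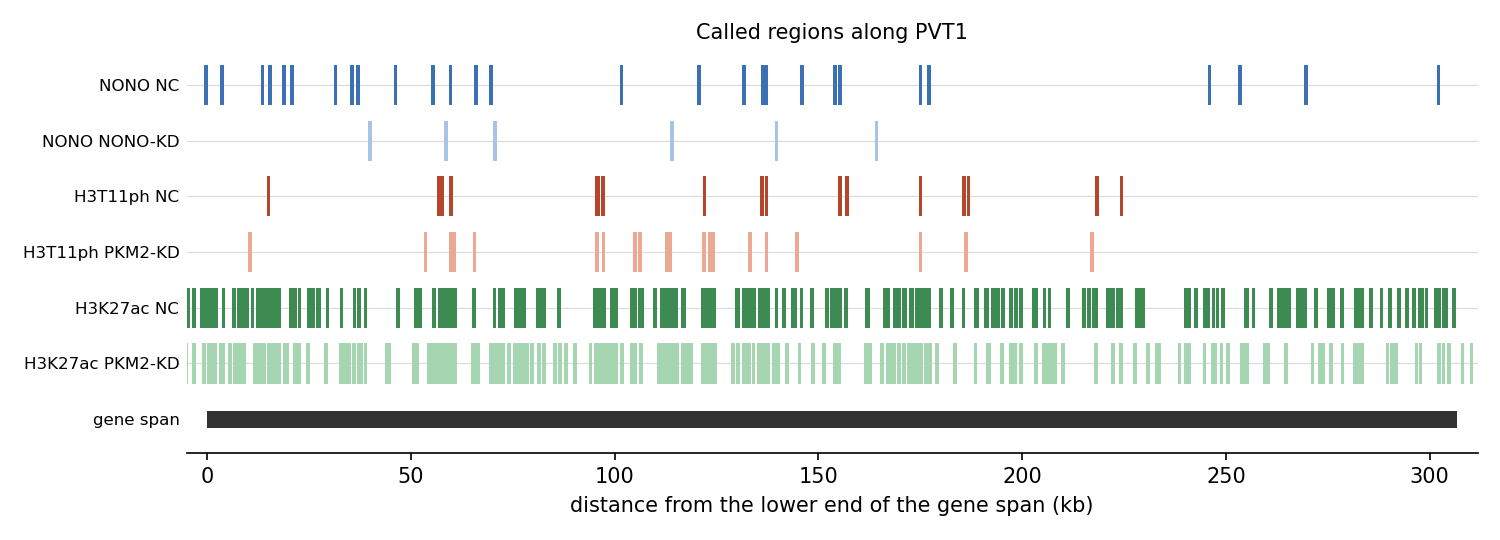
Called regions along PVT1 in the 6 libraries, 1 row each, drawn at a minimum width so that narrow regions can be seen. The horizontal axis is the distance from the lower end of the gene span in kb, transcription runs from left to right, and the dark bar is the gene span. H3T11ph regions stop before 225 kb in both libraries, while H3K27ac and NONO NC regions go on.

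CCND3, which encodes cyclin D3, had the largest drop in the number of H3T11ph regions among the 9 genes, from 5 in NC to 1 in PKM2-KD. Of 4901 genes whose window length was within a factor of 2 of that of CCND3, 7.45% held at least 5 in NC. At least 1 was held by 73.9% of them in PKM2-KD, and the median was 1 in each library. The strongest NC region (chr6:41976915-41977086) lay 41982 bp from the lower end of the span, with a fold of 96.9 and 132 fragments (110.4 to 156.5). A fold that high was reached by the best region of 0.100% of all protein-coding genes. This region shared 82 bp with a NONO NC region and lay wholly inside H3K27ac regions of both libraries. The other NC regions had folds of 55.8, 8.10, 44.0 and 14.6 and heights of 103, 42, 86 and 41 fragments. The PKM2-KD region (chr6:41974691-41974827) had a fold of 5.34 and 6 fragments, and it overlapped none of the NC regions. H3K27ac was present in both libraries at the site of the strongest H3T11ph region, with 53 fragments in NC and 65 in PKM2-KD (ratio 1.21, 0.830 to 1.78).

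Of the 5 NC H3T11ph regions, 2 lay on CCND3 promoters. CCND3 is read from the minus strand and has 3 starts in the RefSeq promoter table (GRCh38.p14). The 250 bases before the outer start (base 42048688 of chromosome 6) and before an inner start (base 41941808) are shown because they lay under H3T11ph regions in NC. PKM2-KD listed no region there, which holds for most NC regions of the list. Capitals mark the bases inside the NC region, 5′ to 3′ on the strand of the gene.
CCND3 outer promoter, chr6:42048689-42048938, minus strand: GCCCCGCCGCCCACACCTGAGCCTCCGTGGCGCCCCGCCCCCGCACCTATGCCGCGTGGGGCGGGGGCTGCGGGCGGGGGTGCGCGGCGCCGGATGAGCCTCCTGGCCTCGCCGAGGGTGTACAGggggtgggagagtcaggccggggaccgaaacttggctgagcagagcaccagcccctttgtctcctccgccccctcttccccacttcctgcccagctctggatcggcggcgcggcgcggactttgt
CCND3 inner promoter, chr6:41941809-41942058, minus strand: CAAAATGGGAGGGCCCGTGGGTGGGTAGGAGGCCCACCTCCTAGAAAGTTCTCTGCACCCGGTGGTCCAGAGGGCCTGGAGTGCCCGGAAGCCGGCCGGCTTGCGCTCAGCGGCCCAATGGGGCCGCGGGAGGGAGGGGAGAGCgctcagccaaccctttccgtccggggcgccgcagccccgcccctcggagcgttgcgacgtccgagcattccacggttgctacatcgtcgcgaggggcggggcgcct

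The outer promoter had 125 of its 250 bases inside the H3T11ph region (chr6:42048814-42048969, 41 fragments) and held no H3K27ac region in either library. The inner promoter had 144 bases inside the region (chr6:41941915-41942108, 42 fragments) and was covered by H3K27ac over 209 bases in NC and all 250 in PKM2-KD. At the inner promoter H3K27ac reached 39 fragments in NC and 59 in PKM2-KD (ratio 1.495, 0.981 to 2.30). The letters GGGCGG, the GC box bound by SP1, were searched on both strands and were found 5 times before the outer start, 4 of them in the capitals, and 2 times before the inner start, both outside the capitals. They are common, since 42.6% of 34789 promoter windows hold them. The CCAAT box (CCAAT), which 32.0% of windows hold, was found once in the capitals of the inner promoter.

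NONO at CCND3 formed 13 regions in NC and 6 in NONO-KD, and none overlapped between the lists, where 2.01% of all NC regions did. The strongest NC region (chr6:42042775-42043306) had a fold of 129 and 313 fragments, the largest NONO height of the 9 genes. The strongest NONO-KD region (chr6:42029788-42029979) had a fold of 114 and 159 fragments, which the best region of 0.541% of all genes reached. A further NONO-KD region (chr6:41941405-41941752, 104 fragments, fold 8.31) lay just inside the gene from the inner start, and a NONO NC region (chr6:42049813-42050081, 76 fragments, fold 21.7) lay over the upper end of the span, outside the 3 promoter windows. H3K27ac comprised 60 regions in NC and 34 in PKM2-KD, which covered 9.18% and 10.6% of the window.

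CCND2, which encodes cyclin D2, held no H3T11ph in either library. It had the smallest share of its window covered by H3K27ac among the 9 genes, close to that of CCNE1 in NC. NC held 7 regions with heights of 7 to 18 fragments and folds of 3.24 to 7.23, and PKM2-KD held none, and the covered length was 2.47% and 0.0%, below the median of all protein-coding genes (3.65% and 2.61%). No H3K27ac region touched its 5′ end. NONO had 2 NC regions inside the gene (chr12:4284884-4285152, 62 fragments, fold 33.2, and chr12:4286539-4286807, 38 fragments, fold 1.96) and none in NONO-KD.

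**Figure D3:**
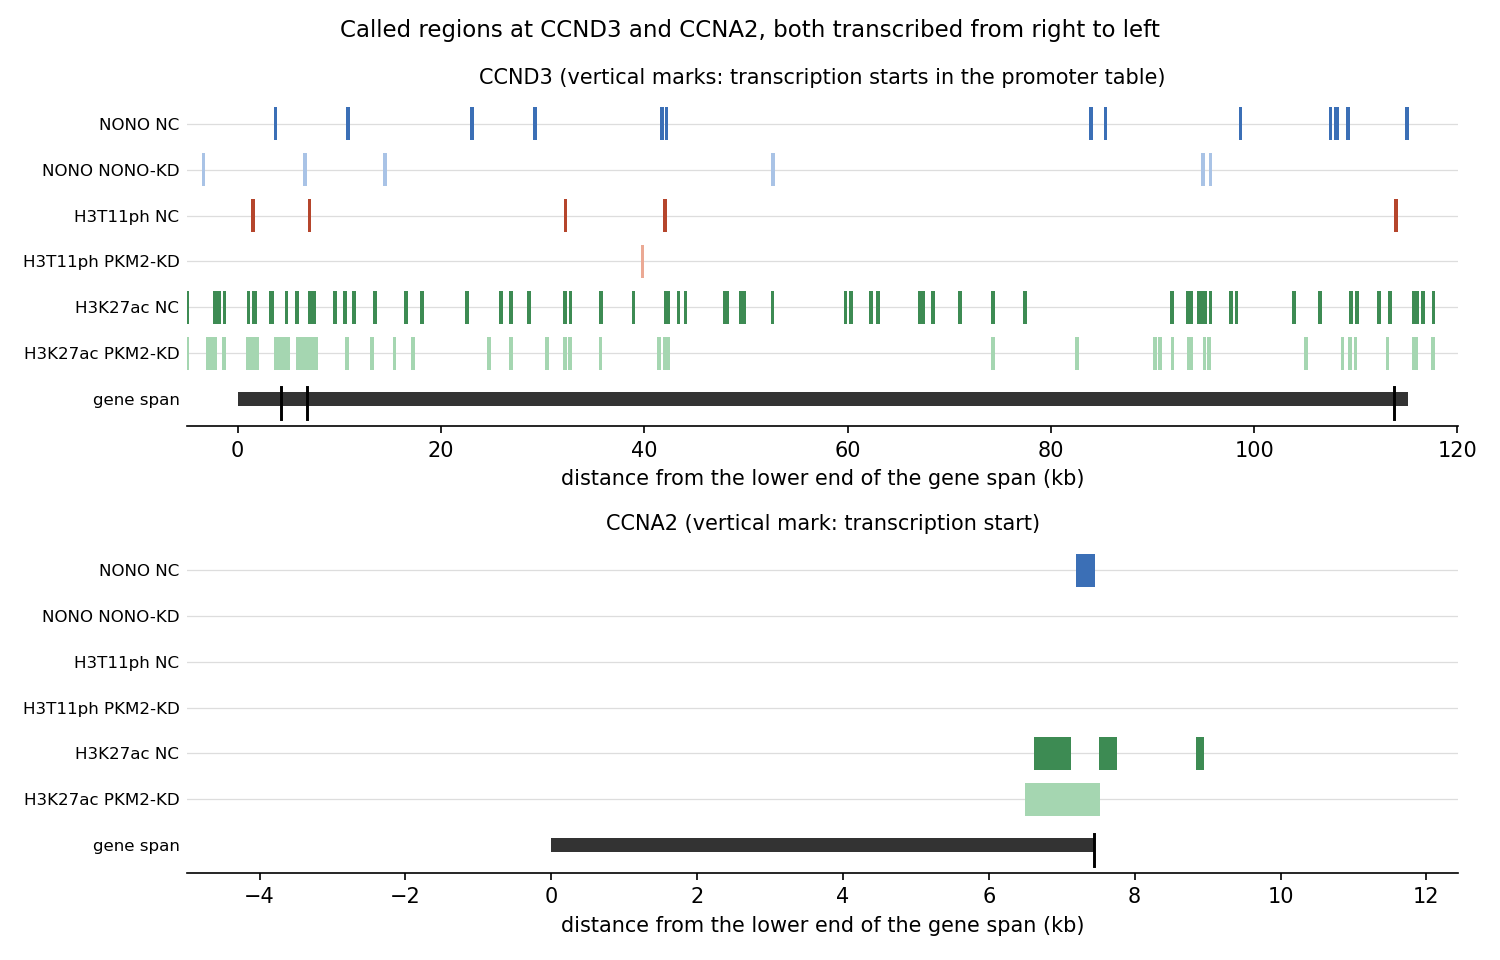
Called regions at CCND3 (top) and CCNA2 (bottom) in the 6 libraries, 1 row each, drawn at a minimum width. The horizontal axis is the distance from the lower end of the gene span in kb, both genes are transcribed from right to left, the dark bar is the gene span and the vertical marks are transcription starts of the promoter table. CCND3 has 5 H3T11ph regions in NC and 1 in PKM2-KD, and the NONO NC region of CCNA2 sits on its start.

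The E-type cyclin genes held little H3T11ph. CCNE1 held none in either library. CCNE2, read from the minus strand, held 1 region in NC (chr8:94879289-94879411), which lay 813 to 935 bp beyond its 3′ end with a fold of 45.2 and 61 fragments (46.7 to 78.4), and none in PKM2-KD. NONO in NC had 1 region near CCNE1, 3605 bp past its 3′ end (chr19:29827917-29828185), with a fold of 142 and 269 fragments. That was the highest NONO fold of the 9 genes, and the best region of 4.59% of all genes reached it. NONO in NC had 2 regions in CCNE2. The stronger (chr8:94887243-94887511, fold 47.9, 90 fragments) lay well inside the gene, and the weaker (fold 13.4, 115 fragments) lay 634 to 902 bp inside the gene from its 5′ end and shared 160 bp with H3K27ac NC. The NONO-KD region of CCNE2 lay elsewhere, 3341 to 3441 bp beyond the 3′ end (fold 36.8, 46 fragments).

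H3K27ac at the E-type cyclin genes was low. At CCNE1 there were 5 narrow regions in NC (7 to 19 fragments) and 1 in PKM2-KD (7 fragments), covering 2.51% and 0.676% of the window. At CCNE2 there were 5 and 3 regions, covering 3.49% and 2.84%. The CCNE2 site near the 5′ end, which had the highest PKM2-KD fold there (6.42), had 37 and 30 fragments (ratio 0.801, 0.478 to 1.33).

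CCNA2, the S and G2 cyclin, and CCNB1, the mitotic cyclin, held no H3T11ph in either library. The 1 NONO region of CCNA2 in NC (chr4:121823635-121823903) lay on its 5′ end, from 248 bp inside the gene to 20 bp upstream of it, with a fold of 38.7 and 154 fragments (130.6 to 180.3). The nearest NONO-KD region lay 58963 bp away. The 250 bases before the start of CCNA2 (base 121823883 of chromosome 4) are shown, with the 20 bases inside the NONO region in capitals. They are shown because, of the 4 genes in the promoter table, only CCNA2 had a NONO region in a promoter window. A NONO NC region also lay over the upper end of the CCND3 span, which is its 5′ end, but outside the promoter windows.
CCNA2 promoter, chr4:121823884-121824133, minus strand: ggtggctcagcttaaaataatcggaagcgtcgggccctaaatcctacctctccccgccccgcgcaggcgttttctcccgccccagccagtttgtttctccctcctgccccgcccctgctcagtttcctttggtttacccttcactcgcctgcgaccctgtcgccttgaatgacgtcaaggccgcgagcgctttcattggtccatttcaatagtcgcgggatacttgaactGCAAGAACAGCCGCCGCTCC

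The printed bases hold the cyclic AMP response element TGACGTCA from 81 to 74 bases before the start, which 1.64% of promoter windows hold on either strand. The E-box CACGTG, the homology region consensus TTTGAA and the octamer ATGCAAAT were searched for as well and gave no match. The bases hold CCAAT on the opposite strand from 56 to 52 bases before it, GGGCGG 3 times on the opposite strand, and CTTGAA from 28 to 23 and from 87 to 82 bases before it. CTTGAA is a variant of the cell cycle homology region, and 9.51% of windows hold it. None of these matches lay in the capitals. H3K27ac flanked the NONO region in NC, and in PKM2-KD a single region of 1017 bp covered it (folds of up to 13.4 and 9.95). The H3K27ac heights were 35 and 36 fragments (ratio 1.02, 0.620 to 1.67).

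NONO had 5 NC regions at CCNB1 and none in NONO-KD, with folds of 3.16 to 33.7 and heights of 5 to 63 fragments, the strongest being chr5:69173645-69173913. The nearest to the 5′ end began 1408 bp inside the gene. H3K27ac lay over the 5′ end of CCNB1, with 52 fragments in NC and 53 in PKM2-KD (ratio 1.007, 0.674 to 1.51). H3K27ac regions at CCNB1 numbered 4 and 2 and covered 4.31% and 3.69% of the window.

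Over the 9 genes, H3T11ph was held by 5 in NC (MYC, PVT1, CCND1, CCND3 and CCNE2) and by 4 in PKM2-KD (the same without CCNE2). Of all protein-coding genes, 56.6% and 53.2% held it. CCNE2 alone had H3T11ph in NC only, a class with 19.3% of all genes, and no member had it in PKM2-KD only, a class with 15.9%. Among the 6976 genes with windows of 17.4 to 41.6 kb, the range of the 7 shorter members, 48.7% and 44.9% held H3T11ph, against 3 and 2 of those 7. The number of members with H3T11ph was therefore near the background in both libraries.

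The number of H3T11ph regions was 27 in NC and 28 in PKM2-KD, which is 103.7% (95% interval 61.5 to 174.9). Without PVT1 it was 10 and 8, or 80.0% (32.6 to 196.6), so both intervals include 100% and the direction changed with PVT1. Per 10 kb of window the 9 genes held 0.441 and 0.458 H3T11ph regions, against 0.158 and 0.143 over the windows of all protein-coding genes. Without PVT1 the densities were 0.339 and 0.271. A PKM2-KD region overlapped 7 of the 27 NC regions, or 25.9% (13.2 to 44.7), against 5.75% over the whole list, and 6 of the 7 were in PVT1 and the other at MYC.

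NONO was held by 8 members in control cells and 4 in NONO-KD, where 77.1% and 51.5% of all protein-coding genes held it. A set of 5 members (CCND1, CCND2, CCNE1, CCNA2 and CCNB1) had it in NC only, against 32.4% of all genes. All 5 were among the 7 shorter members, and 40.1% of the 6976 genes in their window range had NONO in NC only. The NONO regions numbered 56 and 15, or 26.8% (15.3 to 47.0). Per 10 kb of window that was 0.916 and 0.245, against 0.365 and 0.156 over the windows of all protein-coding genes. Listed NONO regions were thus fewer in NONO-KD there too. The whole lists held 89474 and 44349 regions, and at equal list lengths the percentage at the members was 44.1%. None of the 56 NC regions was overlapped by a NONO-KD region, which allows a share of up to 6.42%, and the share over the whole list was 2.01%. The members were therefore not set apart from the list by the lack of overlap.

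H3K27ac was held by all 9 members in NC and by 8 in PKM2-KD, where 97.4% and 89.6% of all genes held it. CCND2 had it in NC only, like 8.79% of all genes, and none had it in PKM2-KD only, a class of 0.936%. The regions numbered 279 and 223, but the covered length was larger in PKM2-KD, at 13.7% and 18.9% of the 9 windows. Over the windows of all protein-coding genes the covered length was 3.75% and 2.93%. Per 10 kb of window the 9 genes held 4.56 and 3.65 H3K27ac regions, against 2.24 and 0.917 over the windows of all protein-coding genes. MYC, PVT1, CCND1, CCND3 and CCNA2 were covered more in PKM2-KD, and CCND2, CCNE1, CCNE2 and CCNB1 less.

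**Figure D4:**
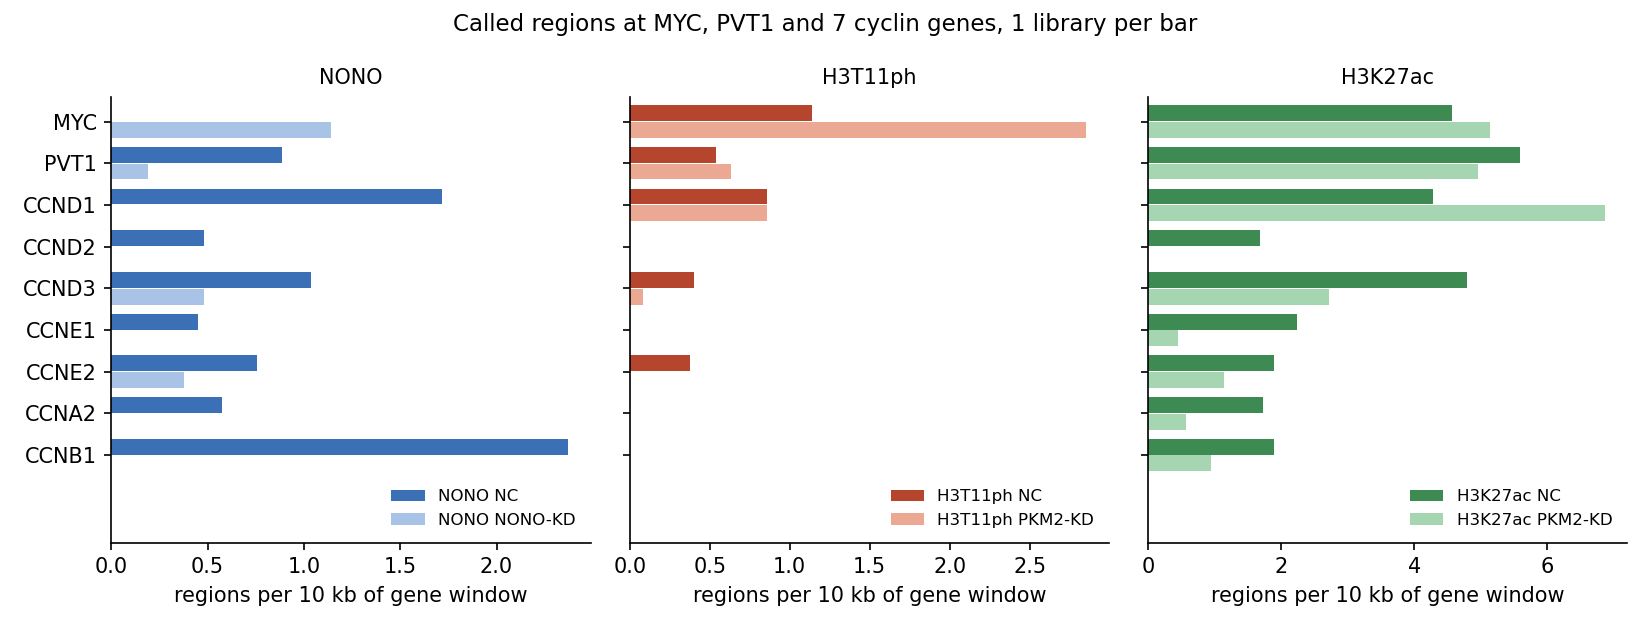
Regions per 10 kb of gene window (horizontal axis) at the 9 genes for NONO (left), H3T11ph (middle) and H3K27ac (right), with dark bars for NC and light bars for the knockdown. Each bar is 1 library, so there are no error bars. H3T11ph bars are present at 5 genes for NC but 4 for PKM2-KD, and NONO bars in NONO-KD at 4 genes.

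Heights gave a comparison of H3K27ac in which the fragments were not divided by the caller's local background. They were still recovered from values that rest on that background, at sites called against it in both libraries. The 9 genes had 110 H3K27ac sites called in both libraries, and 108 of them had a height in each. The median scaled ratio of PKM2-KD to NC over these 108 was 1.09, against 0.988 over 66814 such sites of the genome. By fragments per kb these medians were 1.095 and 0.997. Among the 76 sites with 20 or more fragments in either library the median scaled ratio was 1.15, against 1.09 over 36837 such sites of the genome (quartiles 0.701 and 1.58). The interval lay above 1 at 20 of the 108 sites and below 1 at 11. Among so many 95% intervals some exclude 1 through counting error alone, and variation between cultures is not included in them. By gene the median ratios were 0.944 at MYC (6 sites), 1.07 at CCND1 (6 sites), 1.06 at PVT1 (71 sites) and 1.32 at CCND3 (20 sites). The other genes had 1 or 2 such sites each and CCND2 none. Sites listed in 1 library only cannot enter this comparison.

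**Figure D5:**
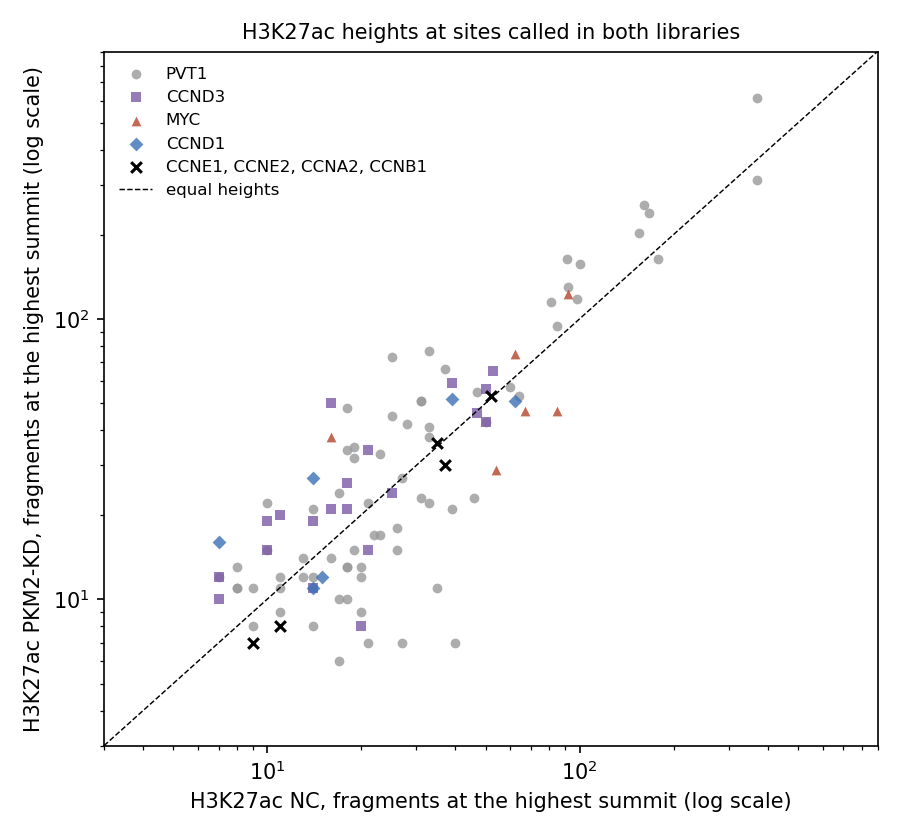
H3K27ac height in NC (horizontal axis) and PKM2-KD (vertical axis), in fragments at the highest summit on log scales, for the 108 sites of the 9 genes that were called in both libraries and had a height in each. Each point is 1 site, symbols mark the gene and the dashed line marks equal heights before scaling. Sites of PVT1 reach 614 fragments, and the 6 MYC sites lie on both sides of the line.

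Shares of regions that overlapped another target were higher at these genes than over the whole lists. In NC, 19 of 27 H3T11ph regions overlapped H3K27ac, or 70.4% (51.5 to 84.1), against 19.7% of the list. In PKM2-KD 20 of 28 did, or 71.4% (52.9 to 84.7), against 24.2%. Without PVT1 these were 6 of 10 and 5 of 8. H3K27ac NC overlapped 22 of 56 NONO NC regions, or 39.3% (27.6 to 52.4), against 16.8% of the list. This rested on PVT1, since it was 18 of 28 there and 4 of 28 at the other genes, or 14.3%. H3T11ph NC overlapped 6 of 56 NONO NC regions, or 10.7% (5.004 to 21.5), against 2.95%, and 5 of these 6 were in PVT1. H3K27ac covered 13.7% of these windows and 3.75% of all gene windows in NC, and its part in the overlaps was not tested.

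Related genes were read in the same way in 3 lists. Of 16 other cyclin genes, 9 held H3T11ph in NC and 10 after PKM2 knockdown. It was in the NC list alone at 2 of them and in the PKM2-KD list alone at 3, and the highest folds among these were at CCNL2 (NC, 53.9), CCNF (PKM2-KD, 29.0) and CCNI (PKM2-KD, 22.2). Of 27 genes of cyclin-dependent kinases and their regulators, 21 and 19 held it, with 7 in NC alone and 5 in PKM2-KD alone. The highest folds among these, all in NC, were at CDC25A, a phosphatase that activates CDK2 (52.5), CDK6, a partner of D-type cyclins (35.0), and SPDYA, a CDK activator (29.2). Of 16 genes of the MYC network, 10 and 11 held it, with 4 in NC alone and 5 in PKM2-KD alone. The highest folds were at the MYC cofactor WDR5 (NC, 46.8), the MYC paralogue MYCL (PKM2-KD, 45.0) and ZBTB17, the MYC partner also known as MIZ1 (PKM2-KD, 38.1). The median share of the window covered by H3T11ph was 0.159% and 0.254% for the cyclin list, 0.529% and 0.301% for the kinases and regulators and 0.209% and 0.198% for the MYC network, against 0.138% and 0.0825% over all protein-coding genes. Each list held genes of both kinds, with an H3T11ph region in the NC list alone or in the PKM2-KD list alone. Over all protein-coding genes, 56.6% held H3T11ph in NC and 53.2% in PKM2-KD. It was in NC alone at 19.3% of them and in PKM2-KD alone at 15.9%. Window lengths were not matched in setting the lists beside these shares.

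NONO was held in NC by 13 of the other cyclin genes, 23 of the kinases and regulators and 14 of the MYC network, and in NONO-KD by 7, 14 and 8. H3K27ac was held by every gene of the 3 lists in NC, and CCNC and MYCN lacked it in PKM2-KD. Over all protein-coding genes, 77.1% held NONO in NC and 51.5% in NONO-KD. For H3K27ac these shares were 97.4% in NC and 89.6% in PKM2-KD.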

How the data were processed

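CUT&Tag peak lists of 6 MDA-MB-231 libraries, 1 per group, were analysed. Groups were taken from the sample titles. Per the submitters' processing notes the authors used FastQC 0.11.9, cutadapt 1.18, SAMtools 1.3.1, MACS2 2.1.1.20160309 and DESeq2 with build hg38, and the aligner is not given in the sources used here. The authors deposited for each region a score (the whole part of 10 times −log10 q), a fold enrichment over local background, a −log10 p and a −log10 q, and the summit. Chromosomes 1 to 22 and X were used.

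Regions were assigned to RefSeq gene spans (GRCh38.p14, no exons) extended by 5 kb and compared by overlap of at least 1 bp in Python 3.11.15 with pandas 2.3.3, numpy 2.4.6 and scipy 1.17.1. Heights were recovered by matching fold and −log10 p to whole fragments within 0.002. Of rows with −log10 p below 200, at least 99.4% matched in each list, and at most 2.80% after the fold was moved by 1%. Of rows at or above it, 95.5% to 100% matched, except 35.5% of 304 rows in H3K27ac NC, where the pileup was multiplied by 0.521. Rows without a match have no height. The counting and recovery steps were tested on simulated data. Sites called in both libraries were merged, their highest summits compared and scaled by the commonest background of each list (or, chosen after the data were seen, by fragments per kb), with exact conditional binomial intervals. Shares have Wilson 95% intervals, and ratios of region counts intervals that follow from them. The narrowest width was taken as fragment length for depth.

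Named were all 9 genes, their strongest region per list, NONO and H3T11ph regions within 1 kb of a 5′ end, and from the 3 gene lists the 3 genes with the highest H3T11ph fold among those with it in 1 list only. Regions beyond this rule were named after their values were seen. The comparison of heights was added after the data were seen. The members and lists were chosen with earlier results of these data known. Of the 9 genes, 4 (CCND3, CCNE1, CCNA2 and CCNB1) had entries in the RefSeq promoter table.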

Additional observations from a re-analysis of the deposited data

How the results depend on the processing

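Of 82 recomputed values, 59 stayed within the main interval or within 1.5 times the main value, 17 moved out of it and 6 turned direction. Scaling heights to fragments per kb, chosen after the data were seen, turned the median H3T11ph ratio from 1.10 to 0.899 at the 7 shared sites of the members and from 1.13 to 0.930 over the list, and no call at those 7 sites changed. The H3K27ac region count in PKM2-KD was 79.9% of NC, and turned to 133.6% under a stricter q (−log10 q of 5 or more), 139.6% for wide regions (2 or more times the narrowest width) and 140.2% at equal list lengths. It was 64.7% without PVT1. The H3T11ph count turned from 103.7% to 80.0% without PVT1 and moved to 180.0% among wide regions (5 and 9 regions). The share of H3K27ac NC regions overlapped in PKM2-KD (50.2%) moved to 61.1% at the stricter q, 70.3% among wide regions, 43.1% without PVT1, 62.9% at equal lengths and 43.0% with at least 50% overlap. The H3T11ph share of 25.9% moved to 10% without PVT1. The NONO NC share overlapped by H3K27ac NC (39.3%) moved to 100.0% among 3 wide regions, 14.3% without PVT1, and 23.2% both at equal lengths and at 50% overlap. The NONO NC share overlapped by H3T11ph NC (10.7%) moved to 0.0% among wide regions, 3.57% without PVT1 and 3.23% at equal lengths. Members with H3T11ph fell to 1 in NC and 2 in PKM2-KD among wide regions. Fewer regions enter under these filters. Beyond that the cause was not tested. The NONO count, its overlap of 0 and the H3K27ac covered length kept their direction in every alternative run, and of 325 values for single genes or sites 84 moved out of range. No paired analysis was possible because the groups are single libraries and no result comes from a test. Depth of about 3 fragments per kb limits what a missing NONO or H3T11ph region shows.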
